A study of Mus musculus with 6 samples.

Results

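The genes described are 7 marker genes of the endocardium, the endothelium that lines the heart chambers and valves: Npr3, Nfatc1, Hapln1, Cdh11, Plvap, Nrg1 and Vwf. They were taken by symbol from the 41214 genes of the count table. All 7 were found, and all 7 passed the filter on low counts that left 10952 genes to be tested. The study asked how loss of the Notch ligand Dll4 changes gene expression in endothelial cells of the embryonic mouse heart. Each of 3 genotype groups had 2 RNA-seq libraries, named by genotype and the number in their labels: KO replicates 1 and 2 (Dll4-/-), het replicates 2 and 3 (Dll4+/-) and wt replicates 4 and 5 (WT). KO embryos came from Dll4 flox/flox Pdgfb-iCreERT2-IRES-EGFP mice mated with Dll4 flox/flox females, het embryos from the same floxed driver mice mated with wildtype, and wt embryos from Pdgfb-iCreERT2-IRES-EGFP mice mated with wildtype. The driver is a tamoxifen-inducible Cre recombinase with a GFP reporter, expressed under the endothelial gene Pdgfb, and the sorted cells of all 3 groups carry it. All dams received tamoxifen at E13.5 and hearts were taken at E14.5, so that the wt cells had also seen Cre and tamoxifen. Cells positive for CD31, an endothelial surface protein, and for GFP were sorted from whole dissected hearts. No further step that separates endocardium from coronary vessels is described. Whether the GFP gate takes cells of both alike was not tested. Hearts of several litters were collected. How many went into a library is not given in the sources used here, so the p-values measure the spread between these libraries, which may be partly technical.

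The endocardium arises before the coronary vessels and stays continuous with the blood in the chambers. It sends signals to the heart muscle that drive trabeculation, and over the cushions some of its cells become the mesenchyme of the valves. It also gives rise to part of the coronary endothelium, and cells that do so lose endocardial markers. Notch signalling acts in this layer, where Dll4 and Notch1 lie upstream of trabecular signals. In bulk RNA such as this, fewer endocardial cells and less RNA of these genes per cell cannot be told apart.

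Dll4 followed the labels. It averaged 16.6 ± 3.97 CPM (counts scaled to a common library size) in KO, 83.5 ± 3.30 CPM in het and 190 ± 9.32 CPM in wt libraries (SD, n = 2 each). It fell by 3.5 on the log2 scale in KO against wt (adjusted p = 2.01e-12) and by 1.18 in het against wt (adjusted p = 0.000735, edgeR's quasi-likelihood test with Benjamini-Hochberg adjustment in both cases). None of the 7 marker genes lies on its chromosome, chromosome 2. Total counts were 6501789 and 4987999 in KO, 1537894 and 3165535 in het, and 2521532 and 1732132 in wt libraries, so 1 count stood for 0.130 to 0.712 CPM. The KO pair stood apart in composition too. Lars2 took 0.0572% to 0.0611% of counts in KO and 16.3% to 17.1% in het and wt libraries, mitochondrial genes took 0.971% to 1.13% in KO and 2.50% to 6.04% in het and wt libraries, and the 7SL and 7SK RNAs took at most 0.00239% in KO and at least 0.138% in het and wt libraries. Differences between KO and the other groups therefore carry both genotype and this composition, and these cannot be told apart.

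No marker gene passed an adjusted p of 0.05 in any comparison by edgeR. In KO against wt 0 of 7 passed, where 32.0% of all tested genes did (14.7% higher, 17.3% lower). In KO against het 0 of 7 passed, where 31.2% did (13.9% higher, 17.2% lower). In het against wt 0 of 7 passed, where 0.173% did (0.128% higher, 0.0457% lower). At an unadjusted p under 0.05 the counts were 2 of 7 in KO against wt (Nfatc1 and Vwf, with 41.8% of tested genes), 0 of 7 in KO against het (41.0%) and 1 of 7 in het against wt (Nrg1, 8.15%). DESeq2 called 0 of 7 in each comparison, and limma-voom called Vwf alone, in KO against wt. The markers' median log2 fold change was -0.17 in KO against wt, -0.53 in KO against het and 0.24 in het against wt. Over all tested genes it was -0.02, -0.02 and 0.01 in the same comparisons. Without het replicate 2 the markers' median was -0.16 in KO against wt, 0.27 in KO against het and -0.32 in het against wt. The sign of both het comparisons thus turned with that library.

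**Figure D1:**
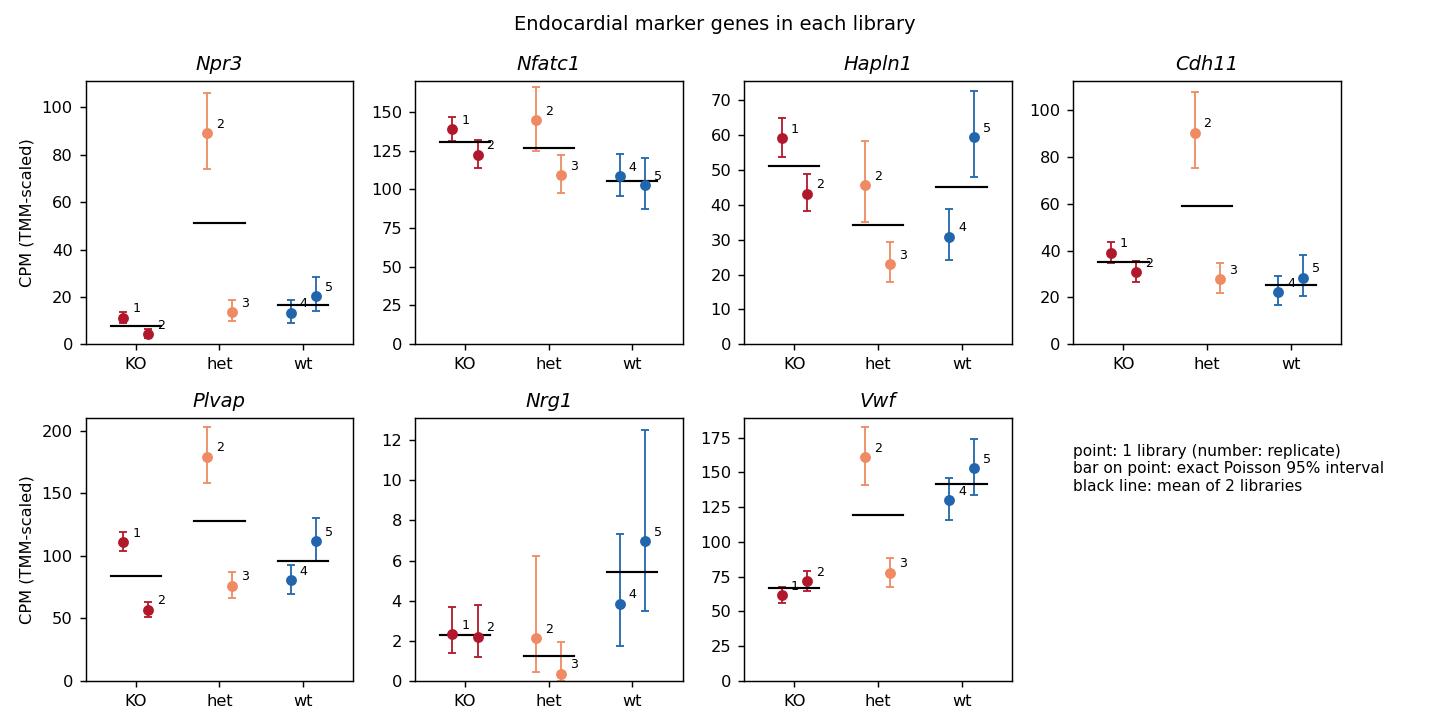
Level of each of the 7 endocardial marker genes in each library, in CPM (y axis, from 0), by group from left to right as KO, het and wt (x axis). Points are libraries with exact Poisson 95% intervals, which cover counting error only, and horizontal lines are group means. The het replicate 2 point stands highest of the 6 in 5 panels, those of Npr3, Nfatc1, Cdh11, Plvap and Vwf.

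Npr3 encodes the clearance receptor that takes up natriuretic peptides, the hormones secreted by heart muscle. The gene lies on the minus strand of chromosome 15 from 11839896 to 11907287 (GRCm38, as are all positions here). An antisense gene, Gm5144, overlaps 321 of its exon bases and was not analysed here. Npr3 stood at 11.2 and 4.24 CPM in KO replicates 1 and 2, 89.0 and 13.6 CPM in het replicates 2 and 3, and 13.3 and 20.3 CPM in wt replicates 4 and 5. Both KO libraries lay below all others, the het and wt groups overlapped, and het replicate 2 stood far above the rest. The log2 fold change was -1.05 (SE 1.33, 95% interval -5.1 to 3.0, adjusted p = 0.63) in KO against wt, -2.58 (SE 1.2, adjusted p = 0.227) in KO against het and 1.53 (SE 1.27, adjusted p = 0.835) in het against wt. These sizes rested on single libraries. In KO against wt the value was -1.93 without KO replicate 1, -0.54 without KO replicate 2 and the same -1.05 without het replicate 2 (SE 0.43, adjusted p = 0.0809). The KO against het value was -0.78 (adjusted p = 0.319) without het replicate 2 and -3.48 (adjusted p = 0.00133) without het replicate 3, which leaves replicate 2 as the only het library. Without het replicate 2, het against wt turned to -0.27 (adjusted p = 0.931).

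Vwf encodes von Willebrand factor, the haemostatic protein that endothelial cells store in Weibel-Palade bodies and that megakaryocytes also make. It lies on the plus strand of chromosome 6 from 125546774 to 125686679. It stood at 61.7 and 71.6 CPM in KO replicates 1 and 2, 161 and 77.8 CPM in het replicates 2 and 3, and 130 and 153 CPM in wt replicates 4 and 5. Both KO libraries lay below both wt libraries and below both het libraries, while the het pair spanned the wt range. The KO against wt log2 fold change was -1.08 (SE 0.37, 95% interval -2.09 to -0.08), a level 2.12-fold lower in KO, with an adjusted p of 0.0998. Over 15 alternatives the value lay between -1.22 and -0.72, and its side of the threshold changed in 5 of them. With het replicate 2 left out it was -1.08 (SE 0.13, adjusted p = 6.19e-06), with het replicate 3 left out its adjusted p was 6.3e-06, and in a fit of the 4 KO and wt libraries alone 7.28e-06. DESeq2 gave an adjusted p of 0.0551 and limma-voom 0.00304. KO against het stood at -0.79 (SE 0.37, adjusted p = 0.207) and het against wt at -0.30 (SE 0.38, adjusted p = 0.891). Both depended on which het library was kept. With replicate 3 as the only het library, KO against het was -0.22 (adjusted p = 0.39) and het against wt -0.86 (1.81-fold lower, adjusted p = 0.0492). With replicate 2 alone, KO against het was -1.27 (adjusted p = 2.34e-05) and het against wt 0.19 (adjusted p = 0.741).

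Markers of megakaryocytes and platelets, cells that carry Vwf themselves, moved with the het spread. Their summed level was 73.1 and 15.4 CPM in KO, 175 and 18.5 CPM in het, and 19.7 and 26.0 CPM in wt libraries, with at most 1 of the 9 listed genes at 0 in a library (Gp6 in KO replicate 2, Ppbp in het replicate 3, Gp1ba in wt replicate 5). Between KO and wt these sums overlapped, and Vwf was lower in KO replicate 1, which had the larger platelet sum of the KO pair. In the het pair both Vwf and the platelet sum were higher in replicate 2. The part of platelet RNA in the Vwf levels was not tested.

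Nfatc1 encodes a transcription factor that calcineurin sends to the nucleus, and in the endocardium it is needed for valve formation. It lies on the minus strand of chromosome 18 from 80606205 to 80713071. It stood at 139 and 122 CPM in KO replicates 1 and 2, 145 and 109 CPM in het replicates 2 and 3, and 108 and 103 CPM in wt replicates 4 and 5. All KO and het libraries lay above both wt libraries, het replicate 3 by the smallest margin. It had the smallest SE of the 7 genes, at 0.14 in KO against wt, below which lay 17.6% of tested genes. The log2 fold change was 0.31 (95% interval 0.01 to 0.60, adjusted p = 0.102) in KO against wt, 0.06 (95% interval -0.23 to 0.35, adjusted p = 0.778) in KO against het and 0.24 (95% interval -0.07 to 0.55, adjusted p = 0.708) in het against wt. Scaling by library size alone, which moves the median of all tested genes to 0.35 in KO against wt, put Nfatc1 at 0.67 (adjusted p = 0.000751).

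Nrg1 encodes neuregulin 1, the endocardial ligand that acts on ErbB receptors of heart muscle cells and is needed for trabeculation. It lies on the minus strand of chromosome 8 from 31814551 to 32884029. It was the scarcest of the 7 genes, with 18 and 13 counts in KO replicates 1 and 2, 3 and 1 counts in het replicates 2 and 3, and 9 and 11 counts in wt replicates 4 and 5. On the CPM scale these were 2.34 and 2.21 in KO, 2.14 and 0.349 in het, and 3.85 and 6.96 in wt libraries. The 3 groups did not overlap: wt stood highest, KO in the middle and het lowest. Between KO and het the margin was 2.21 CPM in KO replicate 2 against 2.14 CPM in het replicate 2. The latter is 3 counts, with a Poisson 95% interval of 0.441 to 6.24 CPM. Over pooled counts the ratio of KO to wt was 0.447 (95% interval 0.247 to 0.827), that of KO to het 2.43 (0.861 to 9.49) and that of het to wt 0.183 (0.0456 to 0.548), intervals that cover counting error only. By edgeR's quasi-likelihood test with Benjamini-Hochberg adjustment, KO against wt had an adjusted p of 0.205 (log2 fold change -1.2, SE 0.70), KO against het 0.375 and het against wt 0.477. The het level lies at or near 3 counts, which is 2.14 CPM in het replicate 2 and 1.05 CPM in het replicate 3. Neither het against wt nor KO against het is therefore firmly measurable at this depth. An antisense gene, Gm26578, overlaps 482 of the 10351 merged exon bases of Nrg1. It held 8 and 3 counts in KO, 0 and 1 in het, and 3 and 2 in wt libraries. Without strand information, reads that lie within the shared bases cannot be assigned to either gene by strand.

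Hapln1 encodes a link protein that holds hyaluronan and proteoglycans together in the matrix of the cushions. It lies on the plus strand of chromosome 13 from 89539796 to 89611652. It stood at 59.1 and 43.3 CPM in KO replicates 1 and 2, 45.6 and 23.0 CPM in het replicates 2 and 3, and 30.8 and 59.5 CPM in wt replicates 4 and 5. Every pair of groups overlapped, and the wt pair alone spanned a 1.93-fold range. The log2 fold change was 0.23 (SE 0.42, 95% interval -0.85 to 1.31, adjusted p = 0.739) in KO against wt, 0.68 (SE 0.44, adjusted p = 0.326) in KO against het and -0.45 (SE 0.49, adjusted p = 0.871) in het against wt.

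Cdh11 encodes a cadherin best known from mesenchymal cells and found in developing valves. It lies on the minus strand of chromosome 8 from 102632095 to 102785642. It stood at 39.1 and 30.9 CPM in KO replicates 1 and 2, 90.5 and 27.9 CPM in het replicates 2 and 3, and 22.3 and 28.5 CPM in wt replicates 4 and 5. Both KO libraries lay above both wt libraries by a narrow margin, and the het pair spanned nearly the whole range. The log2 fold change was 0.49 (SE 0.69, 95% interval -1.53 to 2.51, adjusted p = 0.667) in KO against wt, -0.64 (SE 0.63, adjusted p = 0.535) in KO against het and 1.13 (SE 0.73, adjusted p = 0.766) in het against wt. With het replicate 2 left out, the KO against wt value was 0.49 (SE 0.22, adjusted p = 0.0959), het against wt shrank to 0.16 and KO against het turned to 0.34. With het replicate 3 left out, het against wt stood at 1.85 (adjusted p = 0.00102) and KO against het at -1.36 (adjusted p = 0.000307).

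Plvap encodes the protein that forms the diaphragms of caveolae and fenestrae. It is used as a marker of embryonic endocardium. It lies on the minus strand of chromosome 8 from 71497765 to 71511752. It stood at 111 and 56.8 CPM in KO replicates 1 and 2, 179 and 76.1 CPM in het replicates 2 and 3, and 80.5 and 112 CPM in wt replicates 4 and 5. Every pair of groups overlapped. The log2 fold change was -0.17 (SE 0.65, 95% interval -2.15 to 1.81, adjusted p = 0.88) in KO against wt, -0.53 (SE 0.64, adjusted p = 0.62) in KO against het and 0.36 (SE 0.68, adjusted p = 0.933) in het against wt. Scaling by library size alone turned the KO against wt value to 0.19.

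**Figure D2:**
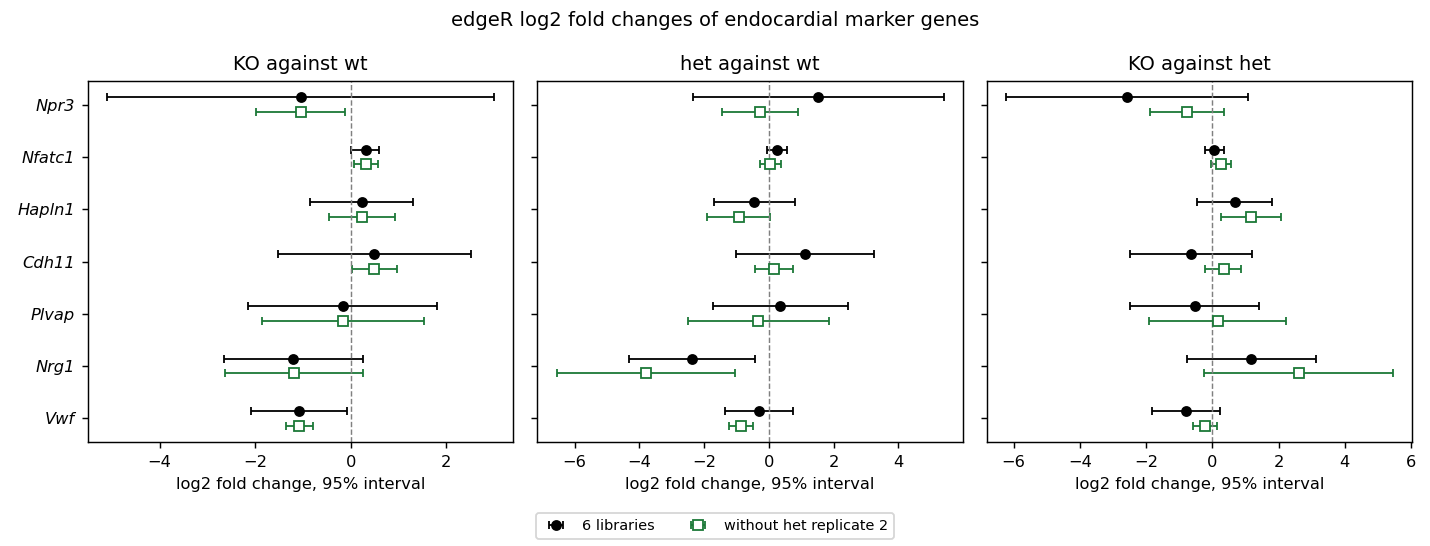
Log2 fold change (x axis) of the 7 marker genes (y axis) in the 3 comparisons, with 95% intervals, fitted with all 6 libraries and without het replicate 2. For Npr3, Cdh11, Plvap and Vwf the KO against wt point stays in place and its interval narrows when het replicate 2 is left out, and for Vwf it then lies between -1.36 and -0.79.

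Counting the order of libraries, KO lay wholly above wt in 2 of 7 genes (Nfatc1 and Cdh11) and wholly below in 3 of 7 (Npr3, Nrg1 and Vwf), where 67.7% of tested genes had groups that did not overlap in this comparison (33.2% higher, 34.5% lower). KO lay wholly above het in 1 of 7 (Nrg1) and wholly below in 2 of 7 (Npr3 and Vwf), against 64.5% of tested genes (31.4% higher, 33.0% lower). Het lay wholly above wt in 1 of 7 (Nfatc1) and wholly below in 1 of 7 (Nrg1), against 38.0% (19.2% higher, 18.8% lower). Read against that background, these counts are no result about the markers. With het replicate 2 left out, 11519 genes were tested and 33.1% were called in KO against wt, 23.8% in KO against het and 0.217% in het against wt. Of the 7 genes, Vwf was then called lower in KO against wt and in het against wt, and none in KO against het.

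Per kilobase of merged exons, the levels of the 7 genes spanned a wide range. Plvap was highest, at 42.2 CPM per kb in KO, 64.3 in het and 48.4 in wt, and Nfatc1 followed at 17.5 CPM per kb in KO, 17.0 in het and 14.1 in wt. The next pair changed places between genotypes. Hapln1 held 8.67 CPM per kb in KO, 5.81 in het and 7.65 in wt, and Vwf 4.15 in KO, 7.43 in het and 8.82 in wt. Cdh11 and Npr3 had lower means than this pair in KO and wt, while in het the mean of Cdh11 stood above that of Hapln1. Cdh11 held 3.93 CPM per kb in KO, 6.65 in het and 2.85 in wt, and Npr3 0.821 in KO, 5.47 in het and 1.79 in wt. Nrg1 was lowest, at 0.219 CPM per kb in KO, 0.120 in het and 0.522 in wt. Vwf and Hapln1 were neighbours in this order in wt and Vwf and Cdh11 in KO, and the libraries of each of these neighbours overlapped. In het the libraries of Vwf, Cdh11, Hapln1 and Npr3 overlapped. Of the 14 listed capillary genes 2 were named here after their values were seen. Fabp4, the capillary fatty acid carrier, stood at 397 CPM per kb in KO, 380 in het and 407 in wt. Cldn5, a tight junction protein of vascular endothelium, stood at 182 in KO, 185 in het and 218 in wt. Both lay above each of the 7 genes, which sets no scale for the rest of the capillary list.

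The SE was large for most of these genes. It pools the spread of all 3 groups, so a wide het pair enlarges it in KO against wt as well. In KO against wt the SE of the log2 fold change was 1.33 for Npr3, 0.69 for Cdh11, 0.65 for Plvap and 0.70 for Nrg1, beside a median of 0.22 over tested genes, and between 93.6% and 99.4% of tested genes had a smaller SE than each of these. For Hapln1 this share was 82.2% and for Vwf 77.5%. The SE in KO against wt fell for Npr3, Cdh11 and Plvap when het replicate 2 was left out. For Cdh11 the KO pair differed 1.27-fold and the wt pair 1.28-fold, so its SE does not show a wide spread in those groups. Nrg1 had 1 to 18 counts in a library, so counting error enters its SE. In the het pair all 7 genes were higher in replicate 2 than in replicate 3, 5 of them at least 2-fold, where 49.0% of tested genes were higher and 3.81% at least 2-fold higher. The ratio was 6.54 for Npr3, 3.24 for Cdh11, 2.36 for Plvap, 2.07 for Vwf, 1.98 for Hapln1 and 1.32 for Nfatc1, and for Nrg1 it rests on 3 counts against 1.

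The other 2 pairs showed smaller ratios, with the order within each pair chosen after its values were seen. In KO, 6 of 7 genes were higher in replicate 1 than in replicate 2, with a median log2 ratio of 0.34 (Npr3 2.63-fold, Plvap 1.95-fold). In wt, 6 of 7 were higher in replicate 5 than in replicate 4, with a median log2 ratio of 0.47 (Hapln1 1.93-fold, Npr3 1.53-fold). The exceptions were Vwf in KO and Nfatc1 in wt. Over all tested genes the median ratio was 0.01 in KO, -0.01 in het and 0.00 in wt.

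A further list of 20 endocardial genes moved the same way in the het pair. There 19 of 20 were higher in het replicate 2 than in replicate 3, 8 of them at least 2-fold, with a median log2 ratio of 0.81. Irx5 and Gata5, transcription factors of the endocardium, were 7.48-fold and 5.78-fold higher, Hand2, a further cardiac transcription factor, 4.42-fold, and Gata4, which acts in cushion formation, 2.16-fold. Slc6a6, the taurine transporter, was the exception. Of coronary capillary genes 3 of 13 were higher in het replicate 2, with a median log2 ratio of -0.29, and of pan-endothelial genes 6 of 16 were, with a median of -0.10. The summed level of the 7 markers was 423 and 331 CPM in KO replicates 1 and 2, 712 and 328 CPM in het replicates 2 and 3, and 389 and 483 CPM in wt replicates 4 and 5. The summed capillary level lay between 4754 and 5285 CPM in all 6 libraries.

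**Figure D3:**
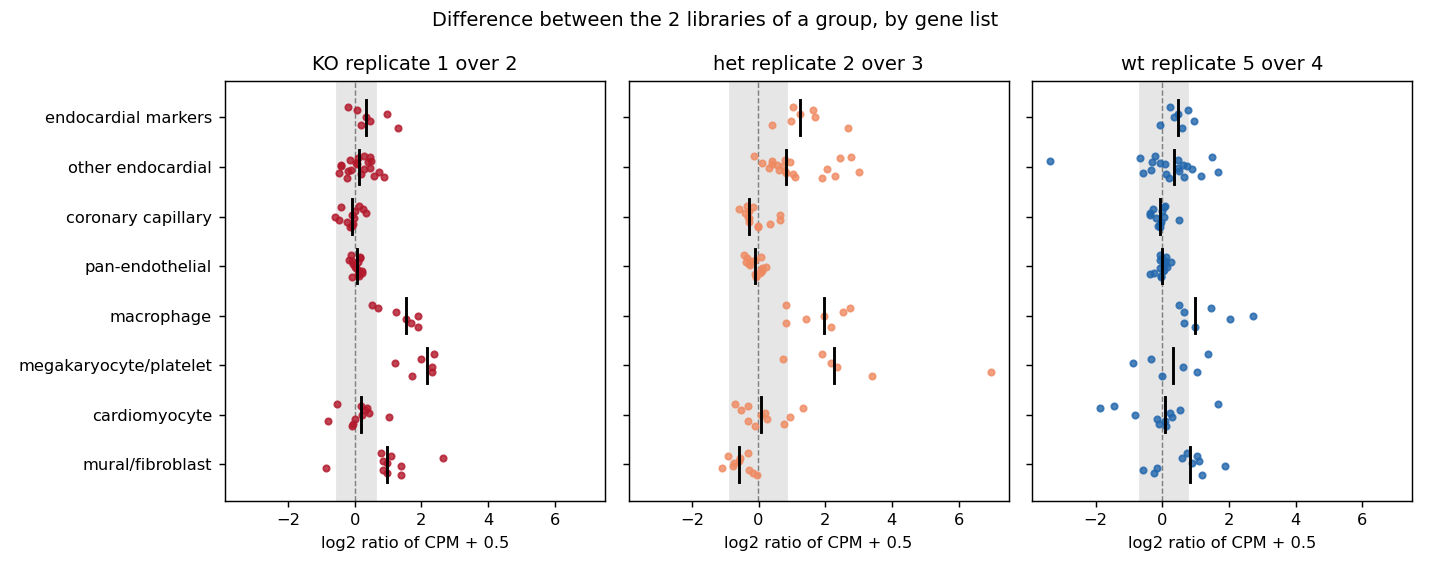
Log2 ratio of CPM + 0.5 between the 2 libraries of each group (KO replicate 1 over 2, het replicate 2 over 3, wt replicate 5 over 4) for the genes of 8 lists. Each point is a gene, black bars are list medians and the grey band runs from the 5th to the 95th percentile of tested genes (-0.87 to 0.86 in het). The marker genes (median 1.23), the further endocardial genes (0.81), the macrophage genes (1.95) and the platelet genes (2.25) lie high in the het pair, and the capillary genes (-0.29) do not.

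Macrophage markers moved with the same libraries. All 7 tested macrophage genes were higher in KO replicate 1, het replicate 2 and wt replicate 5 than in the other library of the pair. Of all tested genes 12.6% were. The 7 genes had median log2 ratios of 1.53 in KO, 1.95 in het and 0.97 in wt. Among listed genes that did not pass the filter, Adgre1 was also higher in all 3 pairs. Ptprc was lower in KO replicate 1 (ratio 0.557) and het replicate 2 (0.85), and Fcgr1 was lower in KO replicate 1 (0.766). Their summed level over the 10 listed genes was 64.9 and 34.6 CPM in KO, 310 and 99.8 CPM in het, and 51.8 and 111 CPM in wt libraries, and none of the 10 was at 0 in any library. Platelet genes had median log2 ratios of 2.15 in KO, 2.25 in het and 0.31 in wt. Genes of the dissociation response, which rise while tissue is broken into cells, had medians of 0.02 in KO, 0.34 in het and 0.21 in wt, and cardiomyocyte genes 0.18 in KO, 0.08 in het and 0.07 in wt. Mural and fibroblast genes, which Cdh11 could also reflect, had medians of 0.97 in KO, -0.58 in het and 0.82 in wt, and erythroid genes 0.33 in KO, -1.69 in het and -1.82 in wt. The part of these cells in the marker values was not tested.

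Among the 20 further endocardial genes, 2 rose and 5 fell in KO against wt, 1 rose and 5 fell in KO against het, and none passed in het against wt. There 1 of 20 had an unadjusted p under 0.05 by edgeR, beside 8.15% of all tested genes. The 7 calls of 20 in KO against wt are near the 32.0% of all tested genes. Bmp6, a secreted BMP ligand, rose to 24.9 ± 5.09 CPM in KO, against 5.30 ± 1.57 CPM in het and 6.68 ± 2.18 CPM in wt (3.82-fold over wt, adjusted p = 0.000194; 4.93-fold over het, adjusted p = 4.86e-05). Its KO libraries stood at 21.3 and 28.5 CPM, above the 4.19 to 8.23 CPM of all het and wt libraries. Cytl1, a secreted cytokine-like protein, stood at 8.70 and 10.4 CPM in KO, 7.83 and 1.75 CPM in het, and 2.14 and 2.53 CPM in wt, and rose in KO against wt by edgeR (adjusted p = 0.0142) but not by DESeq2 (adjusted p = 0.0589).

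Of the 5 genes that fell in KO against wt, Hand2 averaged 3.26 ± 0.532 CPM in KO, 17.0 ± 15.2 CPM in het and 16.0 ± 6.90 CPM in wt (4.73-fold lower than wt, adjusted p = 0.0205). Edn1, the peptide endothelin 1, averaged 22.2 ± 4.37 CPM in KO, 55.8 ± 19.7 CPM in het and 44.3 ± 16.1 CPM in wt (1.96-fold lower than wt, adjusted p = 0.0278). Gata6, which shares roles with Gata4, averaged 20.3 ± 1.81 CPM in KO, 37.5 ± 18.5 CPM in het and 38.9 ± 2.30 CPM in wt (1.90-fold lower than wt, adjusted p = 0.0131). Slc6a6 (-0.65 on the log2 scale) and Emcn, a sialomucin of veins, capillaries and endocardium (-0.40), also fell in KO against wt. With scaling by library size alone Edn1, Gata6, Slc6a6 and Emcn were no longer called. Without het replicate 2 the median log2 fold change of the 20 genes was -0.10 in KO against wt, 0.10 in KO against het and -0.13 in het against wt. With all 6 libraries it was -0.11, -0.39 and 0.29 in the same order.

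**Figure D4:**
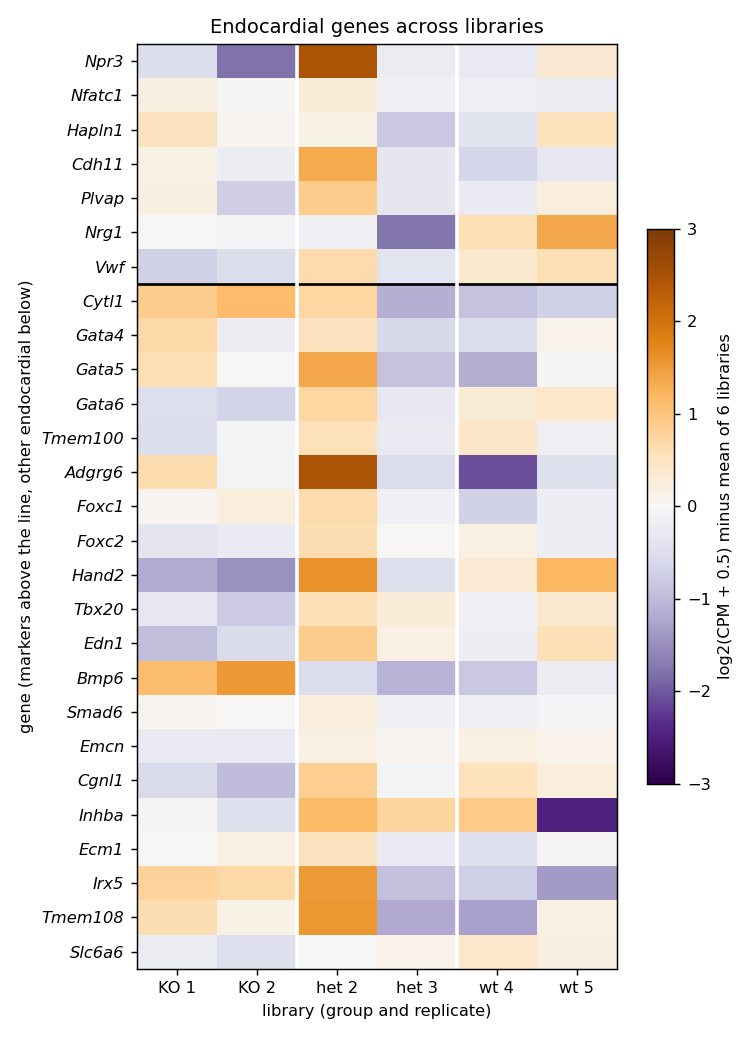
Log2(CPM + 0.5) of the 7 marker genes and the 20 further endocardial genes (rows) in the 6 libraries (columns, KO, het and wt from left to right), each row centred on its mean over the 6 libraries. The het replicate 2 column is high in most rows, while Bmp6 is high in both KO columns, at 21.3 and 28.5 CPM.

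The counts of the lists that follow stand beside the 32.0% of all tested genes called in KO against wt and the 31.2% called in KO against het, and none of these lists was tested against them. The cushion and valve mesenchyme list held 12 tested genes of 18. In KO against wt none rose and 2 fell: Tgfb1, a growth factor of cushion transformation, at 84.6 ± 7.41 CPM in KO, 261 ± 14.2 CPM in het and 242 ± 26.8 CPM in wt (2.86-fold lower than wt, adjusted p = 4.47e-09), and its receptor gene Tgfbr2 (-0.47, adjusted p = 0.00257, not called with scaling by library size alone). In KO against het 5 fell and none rose, among them Postn, a matrix protein of valve mesenchyme (-1.31, adjusted p = 0.000723), and Snai1, a transcription factor of endothelial-to-mesenchymal transition (-2.40, adjusted p = 0.00341). Without het replicate 2 Snai1 stood at -1.85 in KO against het and was no longer called. None passed in het against wt (2 of 12 at an unadjusted p under 0.05 by edgeR, beside 8.15% of all tested genes). Of 13 tested coronary capillary genes 2 rose and 6 fell in KO against wt, with Apln, the apelin peptide, 1.80-fold higher in KO (adjusted p = 1.55e-06) and Esm1, a proteoglycan of growing vessel tips, 3.10-fold lower (adjusted p = 2.22e-05). In het against wt none of the 13 capillary genes passed, and 5 had an unadjusted p under 0.05 by edgeR. The median log2 fold change in KO against wt was -0.11 for the further endocardial list, -0.24 for the cushion list and -0.29 for the capillary list.

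Around Npr3, 4 of 11 genes of the natriuretic peptide pathway were tested. Npr1, the signalling receptor for the peptides that Npr3 removes, fell in KO: it averaged 41.9 ± 6.18 CPM in KO, 84.0 ± 11 CPM in het and 94.9 ± 8.93 CPM in wt (2.25-fold lower than wt, adjusted p = 1.13e-05). Furin, a protease that can process their precursors, was also called (-0.37, adjusted p = 0.0223), but by neither DESeq2 nor edgeR with scaling by library size alone. In KO against het 1 of the 4 fell and none rose.

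Around Nfatc1, 12 of 16 genes of calcineurin and NFAT signalling were tested, and in KO against wt 4 fell and none rose. Ppp3cb, a catalytic subunit of calcineurin, averaged 19.7 ± 0.259 CPM in KO, 86.5 ± 0.486 CPM in het and 86.1 ± 5.40 CPM in wt (4.39-fold lower than wt, adjusted p = 3.05e-09). Nfat5, an NFAT family member that responds to salt rather than to calcineurin, was 2.81-fold lower (adjusted p = 3.66e-05), Homer3, which binds NFAT proteins, 1.81-fold lower (adjusted p = 0.000102), and Gsk3b, a kinase that sends NFAT out of the nucleus, 1.53-fold lower (adjusted p = 0.00268, not called with scaling by library size alone). In KO against het 1 rose and 4 fell.

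Around Nrg1, 6 of 15 genes of neuregulin and ErbB signalling were tested, and 2 rose and 1 fell in KO against wt and in KO against het alike. Adam17 and Adam10, proteases that shed ErbB ligands from the cell surface, rose 1.99-fold (adjusted p = 2.04e-05) and 1.54-fold (adjusted p = 0.000168) in KO against wt. Hbegf, another ErbB ligand, fell to 22.6 ± 3.87 CPM in KO, against 38.7 ± 7.78 CPM in het and 52.5 ± 8.06 CPM in wt (2.33-fold lower than wt, adjusted p = 0.000125). Its KO against het call was lost without het replicate 2 (adjusted p = 0.135), by DESeq2 and with scaling by library size alone. Erbb2, the shared co-receptor, stood at 0.58 on the log2 scale in KO against wt (adjusted p = 0.0665).

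Around Hapln1, 9 of 20 genes of the hyaluronan matrix were tested, of which 2 rose and 3 fell in KO against wt and 1 rose and 3 fell in KO against het. Cd44, the cell surface receptor for hyaluronan, averaged 35.7 ± 1.82 CPM in KO, 85.9 ± 3.47 CPM in het and 131 ± 13.4 CPM in wt (3.67-fold lower than wt, adjusted p = 4.08e-09). The proteoglycan-cleaving proteases did not move as one: Adamts5 was 6.22-fold lower in KO (adjusted p = 9.8e-07) and Adamts9 2.34-fold lower (adjusted p = 6.01e-06), while Adamts1 was 1.93-fold higher (adjusted p = 1.91e-06).

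Around Cdh11, 7 of 11 cadherin and catenin genes were tested, and 1 rose and 1 fell in KO against wt. Cdh5, the endothelial junction cadherin, averaged 401 ± 28.1 CPM in KO, 1859 ± 71.7 CPM in het and 1955 ± 37.5 CPM in wt (4.87-fold lower than wt, adjusted p = 1.87e-13). Ctnna1, which links cadherins to actin, was 1.25-fold higher (adjusted p = 0.0146). Cdh2, or N-cadherin, stood at -0.52 (adjusted p = 0.274).

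Around Plvap, all 9 genes of caveolae and diaphragms were tested, and 1 rose and 4 fell in KO against wt. Cavin3, a caveolar coat protein, averaged 89.3 ± 7.36 CPM in KO, 196 ± 4.69 CPM in het and 237 ± 13.6 CPM in wt (2.66-fold lower than wt, adjusted p = 8.4e-09), and Ehd2, which holds caveolae at the membrane, was 1.68-fold lower (adjusted p = 2.73e-05). Pacsin2, a membrane-bending protein, was 1.94-fold higher (adjusted p = 1.06e-05). Around Vwf, 13 of 16 genes of Weibel-Palade bodies and haemostasis were tested, and 1 rose and 3 fell in KO against wt. Ece1, the endothelin-converting enzyme, was 1.33-fold higher in KO (adjusted p = 0.0204), and Cd63, a membrane protein of these bodies, 1.40-fold lower (adjusted p = 0.0204, not called with scaling by library size alone). Of the 60 tested genes of these 7 pathway lists 25 passed in KO against wt and 26 in KO against het. None passed in het against wt by edgeR, and 12 of the 60 had an unadjusted p under 0.05, beside 8.15% of all tested genes.

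Markers that check the sort stood as follows. Pecam1, which encodes CD31, lay at 844 and 892 CPM in KO, 716 and 752 CPM in het, and 834 and 818 CPM in wt libraries (KO against wt adjusted p = 0.576). It was called higher in KO against het (0.24, adjusted p = 0.0419), but not by DESeq2 (adjusted p = 0.0521) or without het replicate 2 (adjusted p = 0.141). Pdgfb, whose promoter drives the Cre and GFP, was called lower in KO against wt (-0.31, adjusted p = 0.0443) and KO against het (-0.30, adjusted p = 0.0479), but by neither DESeq2 nor RLE scaling, and its sign turned with scaling by library size alone. Of 16 pan-endothelial genes 3 rose and 6 fell in KO against wt, and of 6 tested venous and lymphatic genes 4 rose and 1 fell. Markers of other cell types that could enter the gate were present: cardiomyocyte genes summed to 60.4 and 56.7 CPM in KO, 251 and 206 CPM in het, and 129 and 120 CPM in wt, and mural and fibroblast genes to 336 and 182 CPM in KO, 402 and 549 CPM in het, and 423 and 409 CPM in wt. In KO against wt 4 of 11 tested cardiomyocyte genes fell, 1 of 10 mural and fibroblast genes rose and 3 fell, 1 of 7 macrophage genes fell, the 1 tested epicardial gene of 8 fell, and none of 5 erythroid or 6 platelet genes passed (0 and 1 at an unadjusted p under 0.05). Of 16 dissociation genes 5 rose and 3 fell, and 1, the immediate early gene Egr1, rose in het against wt (log2 fold change 0.95, adjusted p = 0.00113). At an unadjusted p under 0.05 in het against wt by edgeR stood 8.15% of all tested genes. The counts were 7 of 16 for dissociation, 7 of 11 for cardiomyocyte, 3 of 16 for pan-endothelial, 1 of 7 for macrophage and 1 of 10 for mural and fibroblast genes. The median log2 fold change of cardiomyocyte genes was 1.17 in het against wt, -1.04 in KO against wt and -2.05 in KO against het. By edgeR 11 of 11 cardiomyocyte genes fell in KO against het, and 9 of 11 without het replicate 2, when Myh6 and Myl4 were not called. With all 6 libraries DESeq2 did not call Myl4 (adjusted p = 0.1) or Pln (adjusted p = 0.0738), and Myl4 was not called with RLE scaling or scaling by library size alone.

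Across the 6 libraries, the gene pairs with the most similar log2 CPM among the 7 were Npr3 and Plvap (Pearson r = 0.92) and Nfatc1 and Cdh11 (0.83), and the lowest values were -0.20, for Nfatc1 with Nrg1 and with Vwf. Of 9155 other genes, those most like each marker over these 6 libraries were Gprc5c for Npr3 (r = 0.990), Krit1 for Nfatc1 (0.995), Isoc1 for Hapln1 (0.976), Aktip for Cdh11 (0.997), Zfp768 for Plvap (0.971), Selenof for Nrg1 (0.986) and Ppic for Vwf (0.993). The next were Tmem229b and Ctla2b for Npr3, Sord and Nme1 for Nfatc1, Tk2 and Slc35e4 for Hapln1, Cpe and Id2 for Cdh11, Acot13 and Acer2 for Plvap, Pigx and Fkbp3 for Nrg1, and Cyp26b1 and Rnf7 for Vwf. With 6 points that share their library and group, and with so many candidates, values this high describe the libraries alone.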

How the data were processed

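Per the labels' protocols, cDNA from the sorted cells' RNA was made with the SMART-Seq v4 kit, a chemistry that does not mark strand, followed by Nextera XT library preparation. The labels disagree on whether reads were paired or single. The authors deposited RSEM expected counts per Ensembl gene, and the submitters' processing notes name CASAVA, cutadapt, RSEM and the GRCm38 build. The aligner and annotation are not given in the sources used here. Between 12.9% and 16.3% of non-zero values were not whole, and all were rounded. GENCODE M21 gave symbols for 97.7% of IDs, gene positions and merged-exon lengths.

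All 6 libraries entered one fit with edgeR 4.0.16 (R 4.3.3): TMM scaling, filterByExpr with a minimum count of 10, robust glmQLFit and two-sided glmQLFTest on group, with 3 residual degrees of freedom and Benjamini-Hochberg adjustment over 10952 genes at 0.05. SE is the absolute log2 fold change over the square root of F. The edgeR steps were run on counts simulated from the fitted means, spread and library sizes. That simulation did not include the composition difference of the KO libraries, so it cannot show how the steps handle it. CPM use TMM-scaled totals. Poisson intervals and the floor of 3 counts (0.390 to 2.14 CPM per library) cover counting error only. The alternatives were DESeq2 1.42.0, limma-voom (limma 3.58.1), other scalings and filters, 2-group fits, depth thinning, and leaving out Lars2, mitochondrial, 7SL and 7SK genes or each library in turn. List counts and medians without het replicate 2, and list genes under other scalings, were added after seeing the data. The 7 genes and all lists were chosen with earlier results of these data known. From each list up to 4 genes could be named, lowest adjusted p of the KO against wt comparison first, plus genes passing in KO against het or het against wt. Cytl1, Irx5, Gata5, Gata4, Fabp4, Cldn5, the platelet genes at 0, and the cardiomyocyte genes that lost a call were named after their values were seen. Those most like a marker were the 3 with the highest r among symbol-bearing genes whose mean log2 CPM reached 3.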

Additional observations from a re-analysis of the deposited data

How the results depend on the processing

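Under 15 alternatives the 7 genes gave 305 values, of which 275 kept their direction and side of the threshold, 14 reversed, 16 newly passed and 0 lost a call. In KO against wt the number of the 7 called was 1 with library size alone, 2 without a filter, 1 with the 2 groups alone, 1 with limma-voom, 1 after thinning and 0 to 1 when a library was left out. In KO against het it was 1 with library size alone, 2 without a filter and 0 to 3 when a library was left out, and in het against wt 0 to 1 when a library was left out. Without a filter Nfatc1 (0.36, adjusted p = 0.0397) and Vwf (-1.03, adjusted p = 4.23e-07) passed in KO against wt and Hapln1 (0.73) and Vwf (-0.73) in KO against het by edgeR. Library size alone reversed Plvap in KO against wt (0.19). Leaving out a library gave, in KO against wt, -0.17 to 0.74 for Hapln1 and -0.74 to 0.23 for Plvap; in KO against het, -0.14 to 0.27 for Nfatc1, -1.36 to 0.34 for Cdh11 and -1.10 to 0.16 for Plvap; in het against wt, -0.27 to 2.44 for Npr3, -0.93 to 0.06 for Hapln1, -0.32 to 0.92 for Plvap and -0.86 to 0.19 for Vwf. Nrg1 did not pass the filter under a minimum count of 30, after thinning, with Lars2, mitochondrial, 7SL and 7SK genes left out, or in the fit of het and wt alone. Over all genes, calls when a library was left out numbered 2043 (without wt replicate 4) to 3815 in KO against wt, 2435 to 3206 in KO against het and 2 (without wt replicate 4) to 76 (without het replicate 3) in het against wt, where no filter gave 150 and limma-voom 8 beside 19. Library size alone split the calls 3878 higher and 1034 lower in KO against wt, beside 1610 and 1899, and 3930 and 1016 in KO against het, beside 1524 and 1888. With library size alone the median log2 fold change of all tested genes was 0.35 in KO against wt and 0.36 in KO against het, beside -0.02 in both with TMM scaling. The TMM factors were 1.188 and 1.186 in KO and 0.909 to 0.929 in het and wt libraries. Why the KO factors stood apart was not tested. No paired analysis was possible because the groups compared share at most 1 replicate number. With 2 libraries a group, and 1 het library after a replicate is left out, the lone library is assumed to vary like the others.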
